A study of Mus musculus with 123 samples.

Results

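The 8 genes described here serve the differentiation of B cells into antibody-secreting plasma cells: Irf4, Prdm1, Xbp1, Pou2af1, Mzb1, Derl3, Tnfrsf17 and Sdc1. They were listed by symbol, and all 8 had a probe set among the 13053 genes tested. Where a gene had several probe sets, the one whose mean signal was highest was taken. Values are log2 signals of whole lung on Affymetrix arrays, and they are compared within a gene, since signals of different probe sets do not rank genes by abundance.

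All mice were BALB/c, with 1 array per mouse, and the model is one of allergic airway disease, set up by sensitization to ovalbumin (OVA), a protein of egg white, and a later OVA challenge. The 61 naive mice were not sensitized and were taken in groups of 8 at 0, 6, 24, 72 and 168 h after challenge and of 7 at 2, 48 and 96 h. The 62 OVA-sensitized mice were taken in groups of 8 at the same times, except for 6 at 24 h. The design text states that both arms received OVA, whereas the titles of naive samples carry PBS. What the naive mice were given, the age of the mice and the sensitization schedule are therefore not settled by the sources used here, and a difference between arms cannot be told apart from a difference in challenge agent. The tissue is whole lung, with every cell type in it, so that fewer cells of a type and less RNA per cell cannot be told apart.

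Array medians lay between 9.32 and 9.44, and the mean of 10 lung genes lay between 12.88 and 13.30 in every array. In 11 of the 123 arrays, genes of a neighbouring tissue were high: squamous epithelium in 6, skeletal muscle in 6 and lymph node or thymus genes in 5, with some arrays in more than 1 of these. The squamous and muscle scores were cut at their widest gap. The lymph node and thymus score rested on 2 of 9 listed genes, Glycam1 and Cd8b1, and its cut of 8 was set by hand. Another 3 libraries labelled sensitized stood apart. Their Clca1, a secreted goblet cell protein, was at 7.47 (2 h replicate 4), 5.34 (2 h replicate 6) and 6.89 (6 h replicate 3). All were below 7.73, the highest naive value of any time. That cut left in sensitized replicates 2 and 7 of 2 h, whose Clca1 of 8.80 and 8.89 was also low. The remaining sensitized mice of 2 h were at 11.68 or above. Against the naive mice of 2 h alone, replicate 4 of 2 h was above the highest in Clca1 (6.76). It was also above the highest of these (10.84) in Ighm, an antibody heavy chain, at 11.77. Over naive mice of all times Ighm reached 12.99, in a mouse of 0 h. Calls on the 8 genes that change without these 11 or these 3 arrays are given both ways, and both choices were made after the data were seen.

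Plasma cell differentiation is driven by a small set of transcription factors. Irf4 starts the switch, Blimp-1 (the product of Prdm1) silences the B cell programme, and Xbp1, spliced in the unfolded protein response, enlarges the endoplasmic reticulum (ER) for antibody secretion. The coactivator encoded by Pou2af1 (OBF-1) acts with octamer-binding factors on immunoglobulin genes in B cells and plasma cells. Mzb1 is an ER protein that helps assemble antibody, and Derl3 takes part in exporting misfolded proteins from the ER for degradation. At the cell surface, Tnfrsf17 encodes BCMA, the receptor for the survival factors APRIL and BAFF, and Sdc1 encodes syndecan-1 (CD138), a proteoglycan that marks plasma cells but is also made by epithelium. Irf4, Xbp1 and Prdm1 are likewise active outside the B lineage, in T cells, dendritic cells, macrophages or secretory epithelium.

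Sensitized lungs had more RNA of most of these genes from 6 h onwards, with the widest gap at 72 and 96 h. Differences are sensitized minus naive on the log2 scale, so that 1 is a 2-fold change, and "higher" or "lower" means an adjusted p under 0.05 in limma, fitted to all 13053 genes. At 0 h 3 of the 8 genes were higher (Mzb1, Irf4, Derl3) and 1 was lower (Sdc1), where 26.5% of all genes differed (14.2% higher, 12.3% lower). At 2 h none of the 8 passed, against 3.76% of all genes (1.84% higher, 1.92% lower). That background of 491 genes ranged from 168 without sensitized replicate 8 to 609 without sensitized replicate 7. Here and below, leaving out a replicate removed the mice of that number from 1 arm at every time at once. The difference at a given time thereby loses 1 mouse, while the spread pooled over all groups changes too. A changed call can therefore not be laid to a single mouse. At 2 h unadjusted p-values were under 0.05 for Derl3, Xbp1 and Pou2af1 (limma). The share of all genes at an unadjusted p was counted only for the change from 0 to 48 h. Other such counts here therefore have no background beside them. An exact permutation test passed for Derl3 and Pou2af1, adjusted over the 8 genes and 8 times only and not over all genes. At 6 h 6 were higher and none lower, where 57.8% of all genes differed (24.6% higher, 33.2% lower). At 24, 48, 72 and 96 h 6 were higher and Sdc1 was lower, against 47.7%, 35.1%, 48.5% and 42.0% of all genes in either direction. The shares of all genes at these times were 22.8%, 17%, 22.2% and 21.2% for higher and 24.9%, 18.1%, 26.3% and 20.8% for lower. At 168 h, when 4.81% of all genes differed (3.40% higher, 1.41% lower), 5 of the 8 were higher: Derl3, Mzb1, Tnfrsf17, Irf4 and Xbp1.

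The median difference of the 8 genes went from 0.36 at 0 h and 0.12 at 2 h to 1.28 at 72 h, then 1.11 at 96 h, and was 0.55 at 168 h. Over all genes the median stayed between -0.04 and 0.01. Derl3 ranked 18 and Mzb1 ranked 19 among the 13053 genes by the difference at 168 h, Tnfrsf17 ranked 45 and Irf4 ranked 74. At 96 h Mzb1 ranked 17 and Derl3 ranked 26. Mouse by mouse, every sensitized mouse lay above every naive mouse for 6 of the 8 genes at 72 h (6.92% of all genes), for 5 at 96 h (6.13%) and 48 h (5.98%), and for 3 at 24 h (13%). At 168 h this held for Derl3 (0.383% of all genes), at 6 h for Prdm1 (1.5%) and at 2 h for Derl3 (0.429%), and at 0 h for none of the 8 (1.98%).

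**Figure D1:**
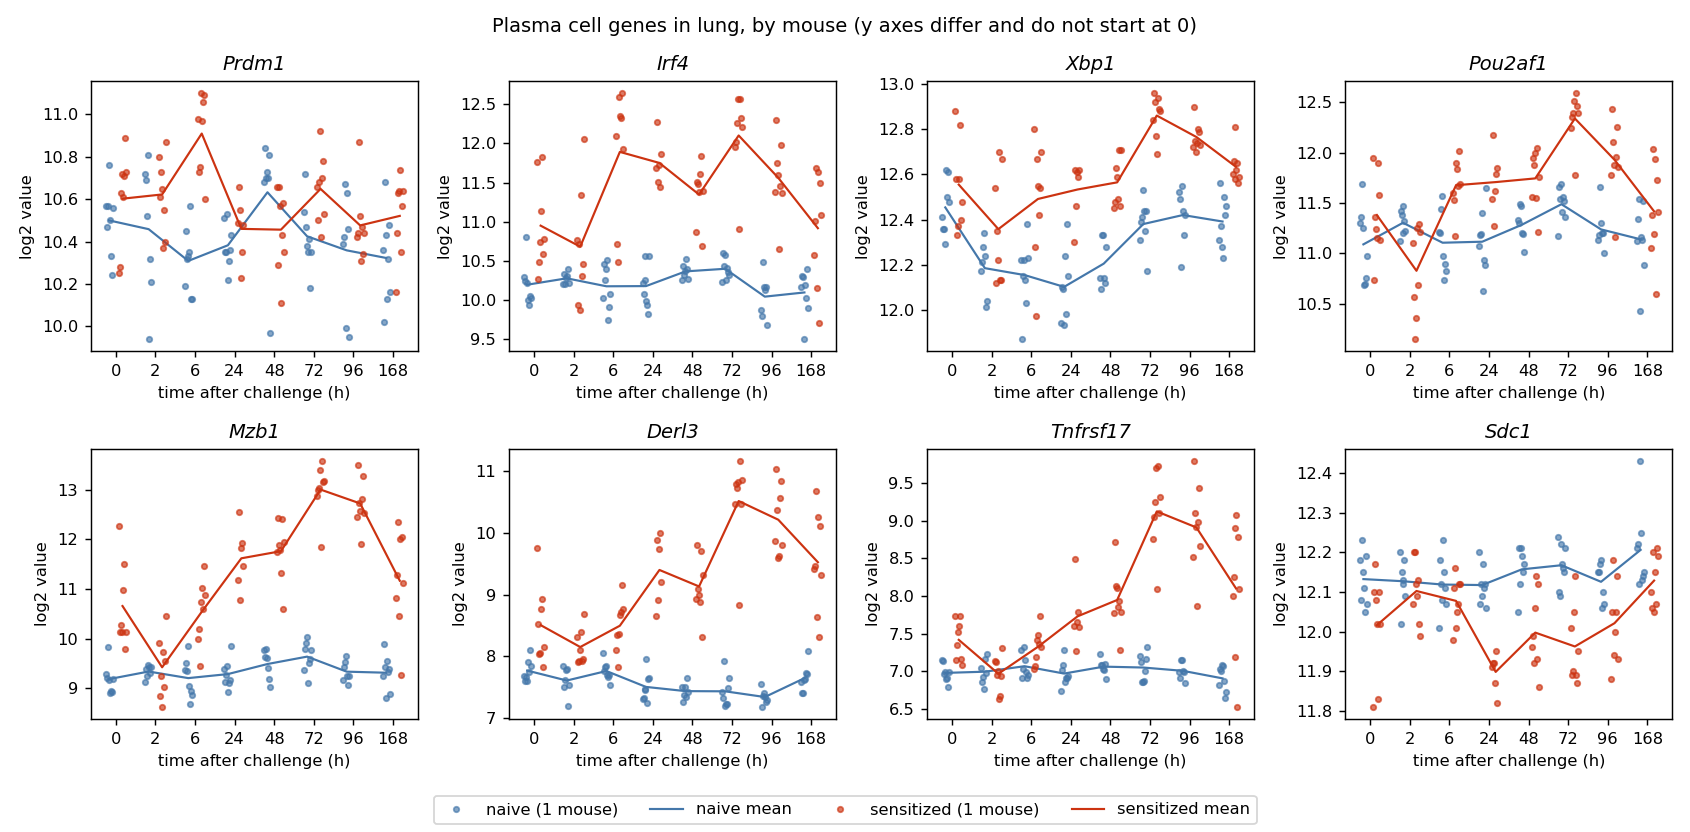
Log2 value of each of the 8 genes (y axis, own scale in each panel, not from 0) in each of 123 mice by hours after challenge (x axis, evenly spaced); points are mice and lines join group means. Mzb1, Derl3 and Tnfrsf17 separate the arms completely at 72 and 96 h, Prdm1 only at 6 h, and Sdc1 stays between 11.81 and 12.43 in all mice.

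Among the transcription factors, Irf4 was the one with the widest gap. In naive mice its values at 6 h ran from 9.74 over a median of 10.17 to 10.51, and in sensitized mice from 10.49 over a median of 12.21 to 12.64. At 72 h the naive mice lay between 10.23 and 10.60 (median 10.38) and the sensitized mice between 10.90 and 12.57 (median 12.24). The arms touched at 6 h only through sensitized replicate 3, one of the mice with naive-like Clca1, and did not overlap at 24, 48, 72 or 96 h. Irf4 was higher by 0.75 ± 0.23 (SE) at 0 h, 1.71 ± 0.23 at 6 h (3.28-fold, adjusted p = 3.01e-10, limma), 1.57 ± 0.25 at 24 h, 0.98 ± 0.24 at 48 h, 1.71 ± 0.23 at 72 h (3.26-fold), 1.52 ± 0.24 at 96 h and 0.82 ± 0.23 at 168 h. Without the 3 arrays with naive-like Clca1, the 6 h difference was 1.92. The call at 0 h was lost without sensitized replicate 1 (adjusted p = 0.0512, limma). The call at 168 h was lost without naive replicate 4 or sensitized replicate 3 (highest adjusted p = 0.0539, limma) and in a fit of the 168 h mice alone (adjusted p = 0.094, limma), in which the sensitized SD of 0.72 weighs more.

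The 2 h values of Irf4 showed how uneven the early sensitized mice were. Naive mice stayed between 10.20 and 10.40, while sensitized mice ran from 9.87 to 12.05. Of the 8 sensitized mice 5 lay above and 2 below every naive mouse, and the mean difference of 0.40 ± 0.24 did not pass (adjusted p = 0.383, limma). A second Irf4 probe set with a lower signal gave smaller differences, 0.76 at 6 h and 1.02 at 72 h, and passed at 6, 24, 72 and 96 h but not at 0, 48 or 168 h.

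Prdm1, the gene for the repressor Blimp-1, was called at 6 h and at no other time in the fit to all mice. At 6 h the naive mice lay between 10.13 and 10.57 (median 10.32) and the sensitized mice between 10.60 and 11.10 (median 10.97). All 8 sensitized mice thus stood above all 8 naive mice, including the one with naive-like Clca1. The difference was 0.60 ± 0.10 (1.52-fold, adjusted p = 2.07e-07, limma). At 72 h, when Irf4 was as far apart as at 6 h, naive values ran from 10.18 to 10.72 and sensitized values from 10.42 to 10.92, and the difference of 0.22 ± 0.10 did not pass (adjusted p = 0.0584, limma). It did pass without naive replicate 2, sensitized replicate 2 or sensitized replicate 5, where the lowest adjusted p was 0.03 (limma). It passed as well with array weights (0.23) and in the fit of that time alone (adjusted p = 0.0232 in both, limma), and in the exact permutation test (adjusted p = 0.0223). At 48 h the difference was -0.18 ± 0.10 (adjusted p = 0.183, limma). Without naive replicate 7 it was -0.29 and passed (adjusted p = 0.0203, limma). The naive replicate 7 of 48 h, at 9.97, stood apart from the other naive mice of that time at 10.68 to 10.84.

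Xbp1, the ER stress transcription factor, differed by at most 1.40-fold with the probe set used. At 72 h naive mice lay between 12.17 and 12.53 (median 12.40) and sensitized mice between 12.69 and 12.96 (median 12.89). At 168 h they lay between 12.23 and 12.56 and between 12.56 and 12.81. The arms did not overlap at 48, 72 or 96 h, and at 168 h they met at a single value. The difference was 0.34 ± 0.07 at 6 h, 0.43 ± 0.08 at 24 h, 0.36 ± 0.08 at 48 h, 0.48 ± 0.07 at 72 h (1.40-fold, adjusted p = 4.45e-08, limma), 0.35 ± 0.08 at 96 h and 0.24 ± 0.07 at 168 h (adjusted p = 0.0362, limma). The call at 168 h held in 10 of 16 fits that left out 1 replicate number, and it was lost with each array centred on its median (adjusted p = 0.0739, limma). It was also lost with RNA quality, taken as the log2 signal of actin at its 3′ end minus that at its 5′ end, as a covariate (0.26, adjusted p = 0.0619, limma). At 168 h that measure had a median of 1.53 in sensitized and 1.22 in naive mice. Xbp1 was also the only one of the 8 that changed over time in naive mice (F = 6.80, adjusted p = 2.02e-05, limma), with means of 12.46 at 0 h, 12.15 at 6 h, 12.10 at 24 h and 12.42 at 96 h. Among all genes 38.4% changed over time in naive mice. With the mean over its 3 probe sets in place of 1, Xbp1 did not pass that test (adjusted p = 0.0527, limma). Its other probe sets gave larger differences at 6 h, 0.51 and 0.68, and at 72 h, 0.60 and 0.58. They passed at 2 h as well (0.30 and 0.40) and did not pass at 168 h. The probe set used differed by 0.17 at 2 h (adjusted p = 0.207, limma) and passed there without the 3 arrays with naive-like Clca1 (0.24, adjusted p = 0.0491, limma).

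Pou2af1, the B lineage coactivator, had a low median at 2 h and was higher from 6 to 96 h. At 2 h the sensitized mice ran from 10.15 over a median of 10.89 to 11.29 and the naive mice from 11.12 over 11.32 to 11.47. At 72 h the sensitized mice ran from 11.78 over 12.39 to 12.59 and the naive mice from 11.17 over 11.53 to 11.69. Of the 8 sensitized mice at 2 h 5 lay below every naive mouse, while at 72 h all 8 lay above. The 2 h difference was -0.48 ± 0.16 and did not pass in limma (adjusted p = 0.0821), although it did in the exact permutation test (adjusted p = 0.0175) and with array weights (-0.51, adjusted p = 0.00809, limma). From 6 h on Pou2af1 was higher, by 0.57 ± 0.16 at 6 h, 0.59 ± 0.17 at 24 h, 0.46 ± 0.16 at 48 h, 0.85 ± 0.16 at 72 h (1.81-fold, adjusted p = 4.54e-06, limma) and 0.69 ± 0.16 at 96 h. The call at 48 h was lost without naive replicate 7 (adjusted p = 0.0575, limma) and without the 11 arrays with other tissue (0.37, adjusted p = 0.113, limma), 3 of which were sensitized mice of that time. Replicates 2 and 4 among these were high in the lymph node score alone. At 168 h, at 0.28 ± 0.16, it was not called.

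The ER proteins of antibody secretion, Mzb1 and Derl3, showed the largest differences of the 8. Mzb1 at 72 h lay between 9.11 and 10.04 (median 9.68) in naive mice and between 11.85 and 13.58 (median 13.10) in sensitized mice. At 96 h the naive range was 9.06 to 9.65 and the sensitized range 11.91 to 13.50. At both times every sensitized mouse stood well above the highest naive mouse. Mzb1 was higher by 3.37 ± 0.26 at 72 h (10.35-fold, adjusted p = 3.1e-20, limma) and by 3.39 ± 0.27 at 96 h (10.51-fold, adjusted p = 1.59e-19, limma). It was higher by 1.47 ± 0.26 at 0 h, 1.34 ± 0.26 at 6 h, 2.34 ± 0.28 at 24 h and 2.28 ± 0.27 at 48 h.

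At 2 h the sensitized Mzb1 values spread from 8.62 to 10.45 around naive values of 9.12 to 9.46. Of the 8 sensitized mice 4 lay above and 3 below every naive mouse, and the mean difference was 0.09 ± 0.27 (adjusted p = 0.92, limma). The SD among these sensitized mice was 0.61, against 0.12 among the naive mice. At 168 h sensitized mice ran from 9.26 over a median of 11.21 to 12.36, with 7 of 8 above the highest naive mouse at 9.88. The difference was 1.86 ± 0.26 (3.62-fold, adjusted p = 1.26e-07, limma), and the lowest mouse was sensitized replicate 6.

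Derl3 was higher at 7 of the 8 times. At 72 h naive mice lay between 7.20 and 7.92 (median 7.37) and sensitized mice between 8.83 and 11.16 (median 10.76). At 168 h naive mice lay between 7.40 and 8.08 (median 7.63) and sensitized mice between 8.32 and 10.67 (median 9.44). No sensitized mouse overlapped the naive mice at 2, 24, 48, 72, 96 or 168 h. The difference was 0.74 ± 0.21 at 0 h, 0.73 ± 0.21 at 6 h, 1.90 ± 0.23 at 24 h, 1.69 ± 0.22 at 48 h, 3.08 ± 0.21 at 72 h (8.47-fold, adjusted p = 2.31e-23, limma), 2.87 ± 0.22 at 96 h and 1.88 ± 0.21 at 168 h (3.67-fold, adjusted p = 6.05e-11, limma). At 2 h it was 0.55 ± 0.22, not called by limma over all genes (adjusted p = 0.157) but passed by the exact permutation test (adjusted p = 0.000905). The 0 h call was lost without sensitized replicate 1 (adjusted p = 0.0589, limma), whose mouse of 0 h had Derl3 at 9.76.

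The promoters of Derl3 and Pou2af1 are shown because they were the only ones of the 7 found in the promoter table with a full element known from the unfolded protein response, the pathway that Xbp1 serves. The 250 bases before the start site were read from RefSeq (GRCm38.p6), which gave promoters for 7 of the 8 genes but not Mzb1. For Tnfrsf17 and Prdm1 this window lay inside the annotated gene, before an internal start. Capitals mark the match. In Pou2af1 it is the unfolded protein response element TGACGTGG, whose first base lies 61 bases before the start. In Derl3 it is the ER stress element, read on the minus strand as CCAAT, a spacer of 9 bases and CCACG. Read that way, its last base lies 156 bases before the start.
Pou2af1, chr9:51213440-51213689, plus strand: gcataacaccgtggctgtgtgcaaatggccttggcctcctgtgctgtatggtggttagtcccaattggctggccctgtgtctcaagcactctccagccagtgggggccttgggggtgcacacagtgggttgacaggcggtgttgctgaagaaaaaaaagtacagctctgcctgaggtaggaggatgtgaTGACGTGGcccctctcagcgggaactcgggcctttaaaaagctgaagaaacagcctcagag
Derl3, chr10:75893148-75893397, plus strand: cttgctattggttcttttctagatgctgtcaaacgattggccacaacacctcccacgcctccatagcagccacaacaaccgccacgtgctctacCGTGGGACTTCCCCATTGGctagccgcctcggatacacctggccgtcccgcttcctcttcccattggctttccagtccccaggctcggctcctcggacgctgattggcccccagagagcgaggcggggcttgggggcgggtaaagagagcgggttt
Both strands of each promoter were searched for 6 motifs. TGACGTGG was found in 0.563% of 32851 mouse promoters of this length and the full ER stress element in 0.113%. The separate parts of the latter were common, CCACG in 28.3% and CCAAT in 33.8%, and TGACGTGG holds CCACG on its other strand, so that these matches overlap. The octamer ATGCAAAT (1.60% of promoters) was in none of the 7. The repeat of GAAA with a spacer of 2 bases (2.98%), of the kind bound by interferon regulatory factors and Blimp-1, had 1 match, in Tnfrsf17. It lay on the minus strand, with its base furthest from the internal start 101 bases before it. These are matches of letters in this window, and no binding was measured.

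Tnfrsf17, the BCMA receptor of mature plasma cells, differed most at 72 and 96 h, and its calls at 0 and 6 h depended on the fit. At 6 h the sensitized mice, at 7.03 to 7.73 (median 7.35), overlapped the naive mice at 6.91 to 7.33 (median 7.01). At 72 h the sensitized mice lay between 8.09 and 9.73 (median 9.17) and the naive mice between 6.86 and 7.32 (median 7.06). At 48, 72 and 96 h no sensitized mouse overlapped a naive mouse. The difference was 0.44 ± 0.18 at 0 h (adjusted p = 0.0577, limma), -0.03 ± 0.19 at 2 h and 0.26 ± 0.18 at 6 h (adjusted p = 0.214, limma). It passed from 24 h on, at 0.76 ± 0.19, then at 0.88 ± 0.19 at 48 h, 2.07 ± 0.18 at 72 h (4.2-fold, adjusted p = 9.97e-18, limma), 1.90 ± 0.19 at 96 h and 1.19 ± 0.18 at 168 h. The exact permutation test, with its own spread for each time, also passed at 0 h (adjusted p = 0.00192) and at 6 h (adjusted p = 0.0296). Array weights and the fit of that time alone passed at 0 h (adjusted p = 0.012 and 0.00876, limma) and 6 h (0.032 and 0.034). With the actin covariate the 0 h difference passed too (adjusted p = 0.0358, limma).

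Sdc1, the gene of the plasma cell surface marker syndecan-1, went the other way. At 24 h the 6 sensitized mice lay between 11.82 and 11.95 and the 8 naive mice between 12.06 and 12.20, with no overlap. At 72 h sensitized mice ran from 11.87 over a median of 11.92 to 12.14 and naive mice from 12.09 over 12.17 to 12.24. The shift was small but shared by 7 of 8 mice at 72 h. Sdc1 was lower by -0.22 ± 0.04 at 24 h (0.86-fold, adjusted p = 1.58e-05, limma), -0.16 ± 0.04 at 48 h, -0.20 ± 0.04 at 72 h (0.87-fold, adjusted p = 1.23e-05, limma) and -0.10 ± 0.04 at 96 h (adjusted p = 0.035, limma). The 96 h call held in 8 of 15 fits that left out 1 replicate number and was lost in the fit of that time alone (adjusted p = 0.0836, limma). Its difference was -0.12 ± 0.04 at 0 h (adjusted p = 0.0231, limma), and without the 6 arrays with squamous epithelium it was -0.09 and did not pass (adjusted p = 0.107, limma), nor did it without all 11 arrays with other tissue (-0.10, adjusted p = 0.104, limma). The 0 h call held in 12 of 16 fits that left out 1 replicate number. It was lost with array weights (-0.06, adjusted p = 0.139, limma) and in the fit of that time alone (adjusted p = 0.0984, limma). At 2, 6 and 168 h the difference was -0.02, -0.04 and -0.08 and did not pass. Of 11 measured genes of simple epithelium, the other main source of syndecan-1 in lung, 5 were higher and 2 lower at 72 h (22.2% and 26.3% of all genes). Epcam, an epithelial adhesion protein, was higher by 0.30 and Krt18 by 0.18, while Krt19 and Krt7 were lower by -0.19 and -0.21. How far each cell type contributed to the Sdc1 signal was not tested.

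**Figure D2:**
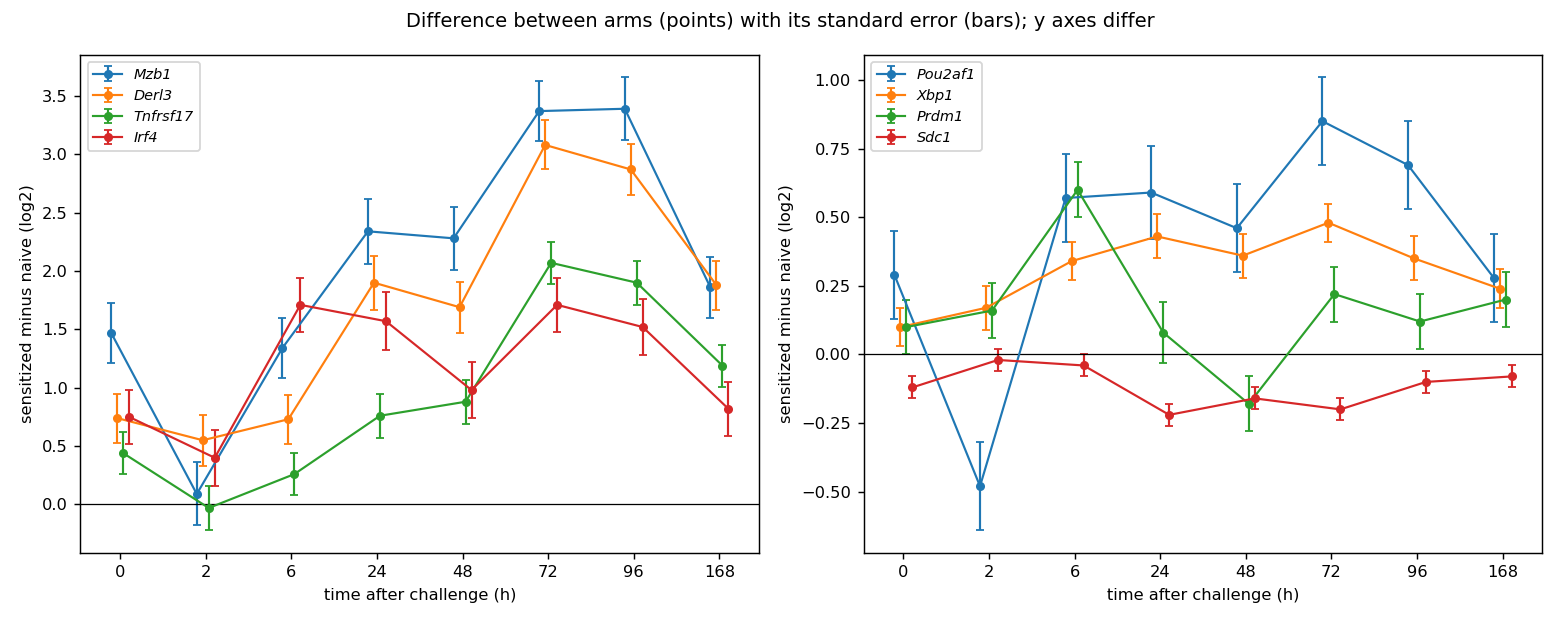
Sensitized minus naive difference (y axis, log2; the 2 panels have different scales) with its SE (bars) for each gene by hours after challenge (x axis, evenly spaced). Mzb1, Derl3 and Tnfrsf17 peak at 72 or 96 h, Irf4 at 6 and 72 h, Prdm1 at 6 h, and Sdc1 stays at or below 0.

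The time course itself differed between the arms for all 8 genes, in the F test of the sensitization by time interaction, which 62.5% of all genes passed. The adjusted p ranged from 1.36e-13 for Derl3 to 0.0141 for Xbp1 (limma). Xbp1 did not pass without sensitized replicate 4 or 7 (highest adjusted p = 0.0561, limma). All 8 also changed over time in sensitized mice, as did 87.8% of all genes. The arms already differed widely at 0 h, so changes since 0 h are not changes since an unaffected state. Clca1 lay between 13.91 and 14.29 in sensitized and between 4.95 and 6.97 in naive mice of 0 h. There 12 of 12 goblet cell genes and 17 of 17 cell cycle genes were higher, against 2 and 0 at 2 h. Against the difference at 0 h, 4 of the 8 were further apart at 72 h, when 2.54% of all genes had changed their difference: Derl3 by 2.35 ± 0.30, Mzb1 by 1.90 ± 0.37, Tnfrsf17 by 1.63 ± 0.25 and Xbp1 by 0.38 ± 0.10. Xbp1 passed in 6 of 16 fits that left out 1 replicate number, and it did not pass without the 11 arrays with other tissue (0.40, adjusted p = 0.0563, limma). At 96 h 3 of the 8 (Derl3, Mzb1, Tnfrsf17) were further apart than at 0 h, against 3.12% of all genes. At 24 h Derl3 was (1.16 ± 0.32, against 5.49% of all genes), and it was not without sensitized replicate 2 or 4 (highest adjusted p = 0.0804, limma). At 168 h Derl3 was again (1.14 ± 0.30, adjusted p = 0.0294, limma, against 1.94% of all genes), in 8 of 16 fits that left out 1 replicate number, but not without the 11 arrays with other tissue (1.18, adjusted p = 0.0526, limma). At 48 h none of the 8 and 0 of the 13053 genes passed in limma. At an unadjusted p under 0.05, 3 of the 8 (Derl3, Mzb1 and Xbp1) and 1438 of all genes did. With array weights 3 of the 8 passed, with the share of all genes for this change not given here. Array weights also raised the calls between arms at 48 h, from 4579 to 6027 genes.

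The earliest times differed from the rest. From 0 to 2 h the gap of Mzb1 fell by 1.39 ± 0.38 (adjusted p = 0.0153, limma) and that of Pou2af1 fell by 0.77 ± 0.23 (adjusted p = 0.0283, limma), against 6.69% of all genes. Both lost the call without the 3 arrays with naive-like Clca1, 2 of which were 2 h mice, at -1.19 (adjusted p = 0.0628, limma) and -0.67 (adjusted p = 0.09, limma). From 2 to 6 h, in a set of successive contrasts chosen after the data were seen, Irf4 gained 1.31 ± 0.33, Mzb1 1.25 ± 0.38, Pou2af1 1.05 ± 0.23 and Prdm1 0.44 ± 0.14, against 32.2% of all genes. Prdm1 did not keep that call without the 11 arrays with other tissue (0.32, adjusted p = 0.129, limma). Measured from 0 h, 2 of the 8 had changed at 6 h, against 24.6% of all genes: Prdm1 by 0.50 ± 0.14 and Irf4 by 0.96 ± 0.32. Irf4 was not called without the 6 arrays with squamous epithelium (0.72, adjusted p = 0.156, limma) or without all 11 arrays with other tissue (0.74, adjusted p = 0.177, limma). In one of these, naive replicate 3 of 0 h, Irf4 was at 10.81 and the other naive mice of 0 h lay between 9.93 and 10.29.

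From 6 to 24 h the genes parted. The difference fell by 0.52 ± 0.15 for Prdm1 and by 0.18 ± 0.06 for Sdc1 and grew by 1.16 ± 0.32 for Derl3, against 16.2% of all genes. Sdc1 did not pass without the squamous epithelium arrays (-0.16, adjusted p = 0.0618, limma) or without all 11 (adjusted p = 0.0637, limma). From 24 to 48 h none of the 8 passed in limma, against 1.72% of all genes, and 0 had an unadjusted p under 0.05. From 48 to 72 h 14 of the 13053 genes, 0.107%, changed their difference, and Derl3 (1.39 ± 0.31, adjusted p = 0.02, limma) and Tnfrsf17 (1.19 ± 0.26, adjusted p = 0.0195, limma) were 2 of them. In fits that left out 1 replicate number these gains stayed between 1.28 and 1.59 and between 1.10 and 1.32, and passed in 8 and 7 of 16 fits. From 72 to 96 h none of the 8 passed, against 0.00766% of all genes, and again 0 had an unadjusted p under 0.05.

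Between 96 and 168 h the gap narrowed for 2 of the 8, against 6.83% of all genes. Mzb1 fell by 1.54 ± 0.38 (adjusted p = 0.0108, limma) and Derl3 fell by 1.0 ± 0.31 (adjusted p = 0.0352, limma). Derl3 passed in 6 of 16 fits that left out 1 replicate number. The actin measure of RNA quality moved with this step: it had a median of 1.11 in sensitized mice at 96 h and 1.53 at 168 h, against 1.08 and 1.22 in naive mice. With it as a covariate the change was -1.08 for Mzb1 (adjusted p = 0.0585, limma) and -0.69 for Derl3 (adjusted p = 0.15, limma), and neither passed.

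Some mice stood apart from their group in several of these genes. Sensitized replicate 6 at 168 h had Tnfrsf17 at 6.53, below every naive mouse of that time, and Mzb1 at 9.26, Irf4 at 9.71 and Pou2af1 at 10.60. Its Jchain was 11.72, its Igha 12.56 and its Clca1 10.66, each the lowest of the 8 sensitized mice of that time. Sensitized replicate 5 at 72 h was the lowest of its group in Mzb1 (11.85), Derl3 (8.83), Irf4 (10.90) and Pou2af1 (11.78), with Clca1 at 14.19. Sensitized replicate 1 at 0 h was the highest of its group in Mzb1 (12.27) and Derl3 (9.76), with Irf4 at 11.76. Among the mice of 2 h, sensitized replicates 2, 6 and 7 had Ighm between 8.54 and 8.99, inside the naive range of 8.72 to 10.84 or below it.

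**Figure D3:**
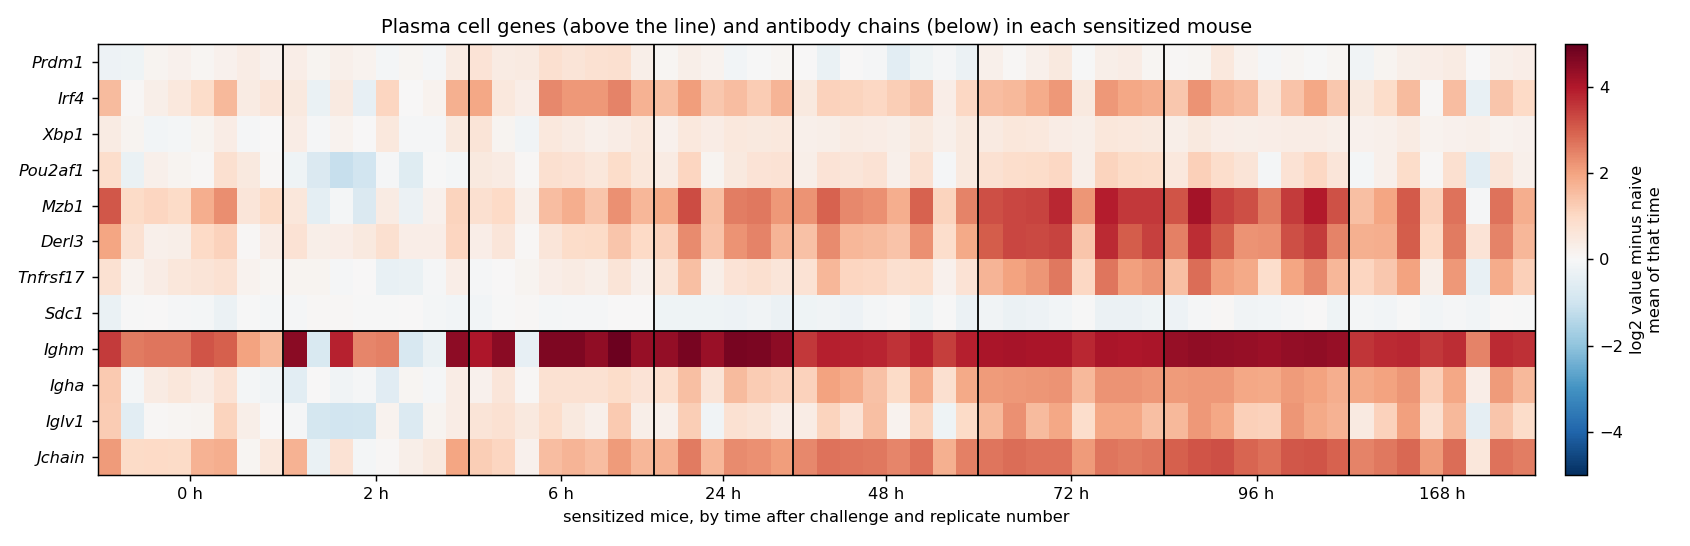
Log2 value minus the naive mean of the same time (colour, red above and blue below) of the 8 genes (upper rows) and 4 antibody chains (lower rows) in each of the 62 sensitized mice (columns, by time and replicate number). Mzb1, Derl3, Tnfrsf17 and Jchain are high together in the columns of 72 and 96 h, and single pale columns at 2, 6 and 168 h are mice in which most rows are near the naive mean.

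Once group means were removed, the genes sorted into those that varied together and those that did not. Over 123 arrays the Pearson correlation of these residuals was 0.83 for Irf4 and Mzb1, 0.81 for Pou2af1 and Mzb1, 0.78 for Mzb1 and Derl3, 0.75 for Mzb1 and Tnfrsf17 and 0.73 for Derl3 and Tnfrsf17. Xbp1 reached 0.47 with Derl3, and Prdm1 at most 0.28 with any of the other genes. Sdc1 reached -0.41 with Xbp1 and was between -0.25 and 0.05 with the rest. All pairs share the same arrays, labelled RNA and tissue mix, so these values are descriptions.

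The nearest genes by the same measure, 5 for each of the 8, separated them further. Mzb1 was nearest to Eaf2, an elongation factor partner (0.87), Gm5547 (0.86), Lax1 (0.83), the signal peptidase subunit Sec11c (0.83) and Irf4 (0.83). Derl3 was nearest to the ER degradation protein Edem1 (0.89), and Tnfrsf17 to Oosp1 (0.85) and the plasma cell surface protein Slamf7 (0.80). Pou2af1 was nearest to the lymphoid transcription factor Ikzf3 (0.91), the B cell surface gene Ms4a1 (0.85), H2-DMb2 (0.85), the B cell adaptor Blnk (0.85) and the light chain gene Iglv1 (0.84). Irf4 was nearest to Mcoln2 (0.83) and Mzb1 (0.83), followed by Gm5547 (0.82), Pdcd1lg2, a checkpoint ligand of dendritic cells and macrophages (0.81), and Malt1 (0.81). Xbp1 was nearest to Actl6a (0.80), Kcnj15 (0.74), Uap1 (0.74), Olfm1 (0.74) and Hnrnpab (0.73). Prdm1 was nearest to Ankrd28 (0.74) and Rbm26 (0.66), and Sdc1 to Zmat4 (0.64) and Mlc1 (0.56).

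Antibody chains, the product of plasma cells, were measured in 4 of 14 listed genes: the heavy chains Ighm and Igha, the light chain gene Iglv1 and the joining chain Jchain, which links IgM and IgA into multimers. All 4 were higher at 6, 48, 72, 96 and 168 h, 3 at 24 h and 2 at 0 h (Ighm and Jchain). At these times, in this order, 24.6%, 17%, 22.2%, 21.2%, 3.40%, 22.8% and 14.2% of all genes were higher. Jchain was higher by 2.63 ± 0.26 at 72 h and by 2.34 ± 0.26 at 168 h (adjusted p = 8.52e-12, limma), and Igha by 2.12 ± 0.17 and 1.66 ± 0.17. Ighm was higher by 4.04 ± 0.50 at 72 h. Its sensitized values there lay within 14.21 to 14.58, a narrow range next to the naive one of 9.38 to 11.68. At 2 h Ighm alone was higher, by 1.99 ± 0.52, with sensitized mice from 8.54 to 13.82. The median difference of the 4 chains was 2.53 at 96 h and 2.00 at 168 h. The IgG, IgE, IgD and kappa genes were not analysed here.

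Of 17 measured further plasma cell genes, 11 were higher and 2 lower at 72 h, with a median of 0.58. Of all genes 22.2% were higher and 26.3% lower then. Eaf2 was higher by 3.59, Slamf7 by 1.74, Cacna1s, a calcium channel subunit, by 1.35 and Tnfrsf13b, the TACI receptor, by 1.02. Cd93, also an endothelial gene, and Creb3l2 were lower, by -0.20 and -0.14. At 168 h 5 were higher and none lower (3.40% and 1.41% of all genes), among the higher ones Eaf2 at 2.14 and Slamf7 at 0.98. At 6 h, when Prdm1 differed, 9 were higher and 5 lower, against 24.6% and 33.2% of all genes.

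ER folding and export genes, many of them targets of Xbp1, were higher in most members at 6, 24, 72 and 96 h. Of 42 measured, 31 were higher and 2 lower at 6 h, and 35 were higher and 1 lower at 24 h, with medians of 0.23 and 0.34. Of all genes 24.6% were higher and 33.2% lower at 6 h, and 22.8% and 24.9% at 24 h. At 72 h 34 were higher (22.2% of all genes) and at 96 h 27 (21.2%), while at 0 h 6 (14.2%) and at 48 h 18 (17%) were. The lower one was Atf6, a sensor of ER stress, at -0.14. The largest differences at 24 h were those of the chaperone partner Sdf2l1 at 1.57 ± 0.19 (adjusted p = 1.58e-11, limma), Edem1 at 1.37 ± 0.18, Creld2 at 0.98 ± 0.13 and Manf at 0.89 ± 0.13. Edem1, the nearest gene of Derl3, was at 2.13 at 72 h. At 2 h 11 of the 42 were higher and none lower, including Sdf2l1 at 0.58 and the chaperone Hspa5 at 0.28, when none of the 8 plasma cell genes passed. Of all genes 1.84% were higher then. At 168 h 9 were higher and none lower, with a median of 0.12, against 3.40% and 1.41% of all genes.

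Genes of the mature B cell programme, which Blimp-1 represses, differed in both directions, and whether they differed from the plasma cell genes was not tested. Of 18 measured, none was higher and 5 were lower at 2 h, with a median of -0.43: Tnfrsf13c, the BAFF receptor, at -0.91, Blk at -0.71, Spib at -0.68, Ccr7 at -0.60 and Ebf1 at -0.28. Of all genes 1.84% were higher and 1.92% lower then. At 6 h 9 were higher and 1 lower, with a median of 0.39, against 24.6% and 33.2% of all genes. In either direction the 18 were called about as often as all genes, of which 57.8% differed. At 72 h, with the same median, 9 were higher and 2 lower, led by Blnk at 1.12 ± 0.15 and the MHC class II activator Ciita at 0.89 ± 0.12. Of all genes 22.2% were higher and 26.3% lower at 72 h. The germinal centre factor Bcl6 and the repressor Bach2 differed by 0.09 and -0.07 at 72 h and did not pass. At 168 h none of the 18 was higher or lower, where 4.81% of all genes differed, a share near which 0 of 18 lies. At that time 5 of the 8 plasma cell genes and all 4 antibody chains were higher, against 3.40% of all genes. At an unadjusted p under 0.05, 4 of the 18 differed at 168 h, Blnk and Ciita upwards and Ccr7 and Id3 downwards (limma). The share of all genes at that threshold was not counted.

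**Figure D4:**
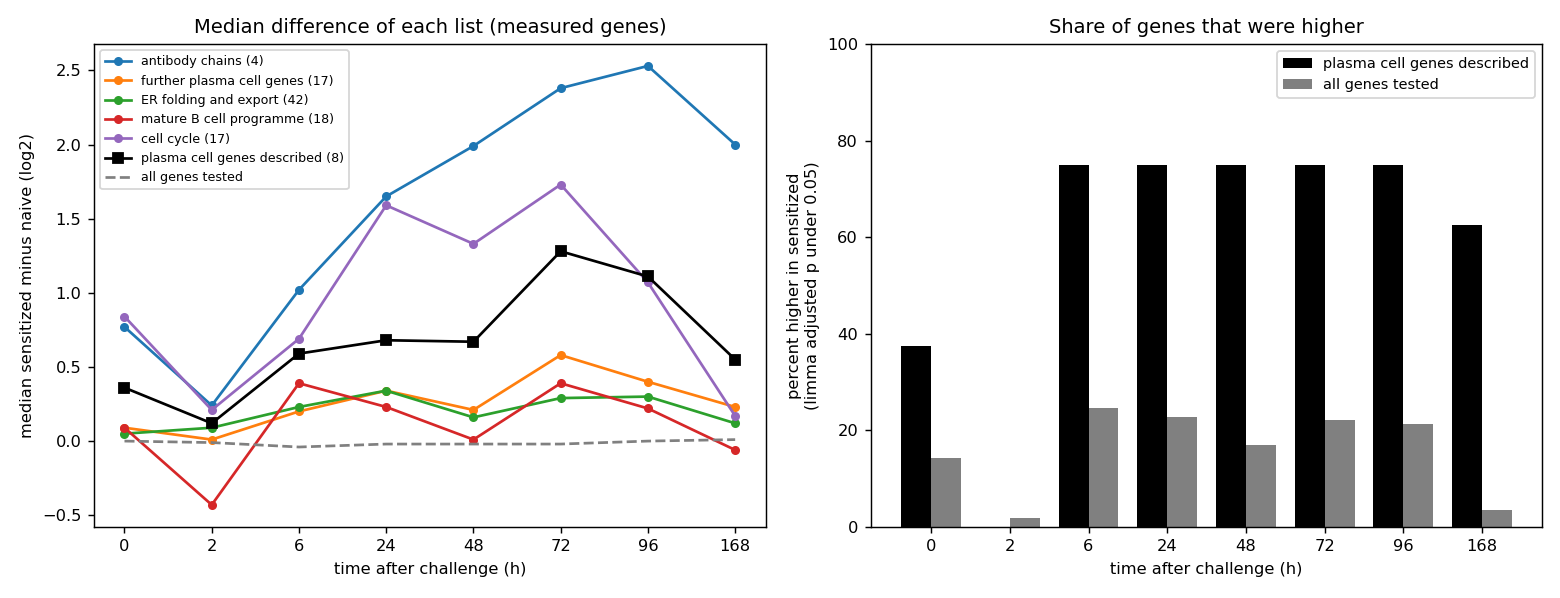
Left, median sensitized minus naive difference (y axis, log2) of the 8 genes and of 5 gene lists, with the number of measured genes in brackets, by hours after challenge (x axis); right, percent of the 8 genes and of all genes tested that were higher in sensitized mice (limma adjusted p under 0.05). At 168 h the antibody chains are at 2.00 and the mature B cell genes at -0.06, and 5 of the 8 genes but 3.40% of all genes are higher.

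Genes of other cell types in which some of the 8 are active also differed. Beside the counts below, 14.2% of all genes were higher at 0 h, 1.84% at 2 h and 24.6% at 6 h, when 33.2% were lower. At 24, 48, 72, 96 and 168 h 22.8%, 17%, 22.2%, 21.2% and 3.40% of all genes were higher. Shares of all genes at an unadjusted p were not counted for these times. Cell cycle genes, a sign of dividing cells such as plasmablasts but of any other dividing cell too, were higher in 17 of 17 at 0 h and from 6 to 96 h, with a median of 1.73 at 72 h, and in none at 2 and 168 h (median 0.17 at 168 h), where 2 and 1 had an unadjusted p under 0.05 (limma). Of 13 T cell genes 11 were higher at 6 h, led by the activation gene Il2ra at 2.78 ± 0.24, and 1 at 168 h, Pdcd1 at 0.83. Of 10 genes of dendritic cells and Irf4-dependent macrophages, 9 were higher at 6 h, led by Cd209e at 4.95 ± 0.44 and Ccl22 at 3.60 ± 0.31, and 7 at 168 h. Among 15 ligands for plasma cell survival and homing, 13 were higher and 1 lower at 6 h, including the cytokines Il6 at 4.30 ± 0.56 and Il4 at 3.76 ± 0.37. At 168 h none of the 15 passed in limma, and 2 had an unadjusted p under 0.05, Ccl25 at 0.16 and Cd86 at 0.36. Il6 was at -0.84 and the BAFF gene Tnfsf13b at 0.25. Goblet cell genes, of a secretory epithelium, were higher in 12 of 12 at 0 h and from 6 to 96 h, with a median of 2.78 at 72 h. Of these 12, 2 were higher at 2 h and 10 at 168 h. The part of dividing cells, T cells, dendritic cells and macrophages in the Irf4 and Prdm1 differences was not tested. Nor was the part of goblet cells in the differences of Xbp1 and the ER folding and export genes.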

How the data were processed

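RNA of whole lung from 123 mice was hybridised to 1-colour Affymetrix arrays, 1 mouse per array. The deposited log2 values were made by the authors with RMA, per the submitters' processing notes, with its version not given in the sources used here; RMA sets all arrays to 1 distribution, so changes are relative to the other genes. The number of arrays limits the precision. Of 25697 probe sets, 10 controls, 259 with several gene symbols and 2950 with none were left out. The probe set with the highest mean stood for each of 13053 genes. limma 3.58.1 (R 4.3.3) fitted a mean for each of 16 groups, with 107 residual degrees of freedom and Benjamini-Hochberg adjustment within each contrast, at a threshold of 0.05, and was tested on simulated data. Exact two-sided permutation tests (scipy 1.17.1) covered 64 gene and time pairs, adjusted together, with a smallest p of 0.000155 for 8 against 8. Named genes were the 8 members, the 5 nearest to each, and the leading genes of 15 lists; other genes named were chosen after their values were seen. The members and lists were chosen with earlier results of these data known. Alternatives covered probe set choice, centring, a filter at 8, array weights, actin 3′ to 5′ difference, tissue arrays and single-time fits. Each replicate number was also left out of 1 arm at all times together. Replicate numbers follow listing order. That 1 array is 1 animal comes from the labels. The limma p-values and SE rest on the spread between mice, pooled for each gene over all 16 groups and moderated across genes. They do not use the spread of the compared groups alone, whereas the permutation test used only the mice of 1 time.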

Additional observations from a re-analysis of the deposited data

Results flagged for a closer look

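In 10 of 128 groups of mice (8 genes by 16 groups) the highest or lowest mouse stood apart by Dixon's criterion, which chance meets in about 1 group in 20. The value given is the gap to the nearest mouse over the range of the group. Sensitized replicate 5 at 72 h was the low mouse for Derl3 (8.83 against 10.47 to 11.16 in the others, 0.71), Irf4 (10.90 against 11.95 to 12.57, 0.63), Mzb1 (11.85 against 12.87 to 13.58, 0.59) and Pou2af1 (11.78 against 12.25 to 12.59, 0.58). Naive replicate 3 at 0 h, which also held squamous epithelium and muscle genes, was the high mouse for Irf4 (10.81 against 9.93 to 10.29, 0.60) and Mzb1 (9.83 against 8.90 to 9.28, 0.60). Prdm1 stood apart in naive replicate 7 at 48 h (9.97 against 10.68 to 10.84, 0.82) and in sensitized replicate 3 at 96 h (10.87 against 10.31 to 10.52, 0.63). Xbp1 did so in sensitized replicate 3 at 168 h (12.81 against 12.56 to 12.66, 0.60) and Sdc1 in naive replicate 4 at 168 h (12.43 against 12.12 to 12.25, 0.59).

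The difference between sensitized and naive mice depended on time for each of the 8 genes in limma's F test of the interaction, which 62.5% of all genes passed. The adjusted p was 1.36e-13 for Derl3, 3.38e-12 for Tnfrsf17, 4.88e-12 for Mzb1 and 3.08e-05 for Pou2af1. It was 0.000453 for Irf4, 0.000742 for Prdm1, 0.0131 for Sdc1 and 0.0141 for Xbp1.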

How the results depend on the processing

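No paired analysis was possible because each array is a separate mouse and the labels carry no replicate numbers shared between groups. Of 704 single-gene differences recomputed under settings other than leaving out a replicate, 673 kept direction and call, 18 gained the call, 9 lost it and 4 reversed. None of the reversed differences was called: Xbp1 at 0 h was -0.02 with array weights, Mzb1 at 2 h -0.08 with array weights and -0.03 with the actin covariate, and Tnfrsf17 at 2 h 0.01 without the arrays with naive-like Clca1. With a replicate left out, Mzb1 at 2 h ranged from -0.06 to 0.20 and Tnfrsf17 at 2 h from -0.08 to 0.02. The number of the 8 genes called at 2 h, 0 in the report, was 1 with the mean of probe sets, array weights, the actin covariate, the single-time fit or without the naive-like Clca1 arrays, and 2 in the exact permutation test. For changes since 0 h, array weights gave 4 at 6 h, 5 at 24 h, 3 at 48 h, 7 at 72 h, 5 at 96 h and 2 at 168 h, in place of 2, 1, 0, 4, 3 and 1. Array weights also raised the calls between arms among all genes at every time, at 72 h from 6335 to 7515. The shares of all genes for changes since 0 h with array weights are not given here. Of the 8 genes, the count for the change from 0 to 2 h went from 2 to 0 without the naive-like Clca1 arrays. At 6 h it was 1 with the actin covariate, without squamous arrays or without all other-tissue arrays. At 24 h it was 2 with the mean of probe sets, the filter, the trended robust prior or without the naive-like Clca1 arrays, and at 168 h it was 2 with the actin covariate and 0 without other-tissue arrays. Over time in naive mice 0 genes passed with the mean of probe sets and 3 with array weights. With a replicate left out the counts called ranged from 1 to 5 at 0 h, 0 to 1 at 2 h and 3 to 5 at 168 h. Those for changes since 0 h ranged from 0 to 2 at 2 h, 1 to 3 at 6 h, 0 to 3 at 24 h and 0 to 2 at 168 h, and that over time in naive mice from 1 to 2. Among all genes, the 3457 called at 0 h became 1950 without other-tissue arrays, the 491 at 2 h became 1379 and the 628 at 168 h became 1570 with array weights, or 362 at 168 h in the single-time fit. With a replicate left out these counts ranged from 1958 (without sensitized replicate 6; 2091 without sensitized replicate 1) to 4048 at 0 h, from 168 to 609 at 2 h (168 without sensitized replicate 8, 276 without naive replicate 6, 298 without sensitized replicate 5, 301 and 304 without naive replicates 3 and 2) and from 348 (without naive replicate 1) to 729 at 168 h. The cause was not tested.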
